A study of Homo sapiens with 6 samples.

Results

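Lipid droplet storage and lipolysis genes were examined in U87MG cells, an established human glioblastoma line of wild-type genotype, that had received vehicle alone (3 control libraries) or RSL3 at 2 µM (3 libraries). RSL3 is a small molecule that inhibits the lipid peroxidase GPX4 and triggers ferroptosis. The 10 genes were chosen by name from the known biology of the organelle, namely PLIN2, PLIN3, DGAT1, DGAT2, PNPLA2, ABHD5, G0S2, HILPDA, LIPE and MGLL, out of 65988 gene identifiers in the files. Earlier results of these data were known when the choice was made. All 10 matched 1 identifier each, and all 10 passed the filter on low counts, which left 16105 genes to test. Both groups are the same line, and per the study RSL3 was given for a day before RNA was isolated. Samples are described there in general as biologically independent, but the sample labels do not say whether these libraries came from separate cultures, so the p-values measure the spread between these libraries, which may be technical. The question the comparison answers is how transcripts that build and break down lipid droplets differed between RSL3-treated and control cells.

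A lipid droplet is a core of triacylglycerol and steryl esters under a single layer of phospholipid, and it keeps fatty acids out of membranes. DGAT enzymes add the last fatty acid to make triacylglycerol, and perilipins coat the surface and limit access of lipases. Stored fat is released in steps, first by the triacylglycerol lipase ATGL, then by hormone-sensitive lipase, and last by monoacylglycerol lipase. Glioblastoma cells are known to form droplets, and storage there is held to keep polyunsaturated fatty acids away from peroxidation.

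Poly(A) RNA was counted per gene without regard to strand, and total counts lay between 27813462 and 43306335 per library. Normalized counts are read counts scaled to the mean library size after TMM adjustment, and a gene is called higher or lower at an adjusted p under 0.05 in edgeR's quasi-likelihood test across all genes. Of the markers listed for the labelled cell type, 8 of 10 glioma and astroglia genes passed the filter, S100B and SOX2 were near 0, and VIM, CD44 and CHI3L1 were called lower and TNC higher. The summed level of that list was 4110 to 4154 CPM (read counts scaled to a fixed library total, after TMM) in control and 3661 to 3805 in RSL3-treated libraries, and the part of this difference in the results below was not tested. The 5 adipocyte markers, 1 of which (ADIPOQ) had no read in any library, summed to between 0.0674 and 0.335 CPM. The lists for macrophages and microglia, endothelium, neurons and epithelium summed to 2.28 to 4.03, 4.79 to 6.07, 30.1 to 33.9 and 2.52 to 3.82 CPM over the 6 libraries. Within these lists KDR and SYT1 were called higher (log2 fold changes 0.54 and 0.24) and VWF and SNAP25 lower (-1.33 and -1.04), and their part in the results was not tested.

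Of the 10 lipid droplet genes, 2 were differentially expressed in RSL3-treated cells. MGLL, which encodes monoacylglycerol lipase, was upregulated, and LIPE, which encodes hormone-sensitive lipase, was downregulated, so the transcripts of the later steps of lipolysis moved in opposite directions. The coat protein genes, both DGAT genes, PNPLA2 and the genes of its activator and inhibitors did not pass the test. In the background, 25.6% of all genes tested were called, 12.9% higher and 12.7% lower, and the share of the 10 genes was 20.0%, below that of all genes. The median log2 fold change over the 10 genes was 0.05, against -0.0044 over all genes tested. In bulk RNA, a change in the number of cells that carry a transcript and a change in transcript per cell cannot be told apart.

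Levels were compared between genes as CPM per kilobase of annotated exon. PLIN3 was the most abundant of the 10 in control cells at 44.6 ± 1.16 (SD, n = 3), and PNPLA2 followed at 31.8 ± 0.927 (SD, n = 3). MGLL stood at 11.9 ± 0.188 and DGAT1 at 5.64 ± 0.430 on the same scale (SD, n = 3). HILPDA, ABHD5 and LIPE formed a group at 3.43, 3.08 and 2.99, with control libraries that overlapped one another. G0S2 was at 2.13 and DGAT2 at 0.981, and PLIN2 was last in counted reads at 0.0650 ± 0.0114 (SD, n = 3). PLIN3 lay at percentile 94.3 of the control levels of all genes tested, and PLIN2 at percentile 2.11. In RSL3-treated cells LIPE, at 2.17 ± 0.0903, stood below G0S2, at 2.98 ± 0.329 (SD, n = 3), whereas in control cells it stood above G0S2, and in both groups these libraries did not overlap. Exon lengths merge the exons of all transcripts of a gene in GENCODE v44, which may differ from the annotation the counting used. The order of the genes rests in part on these lengths. Reads that the counting assigned to no single gene are missing from these levels.

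**Figure D1:**
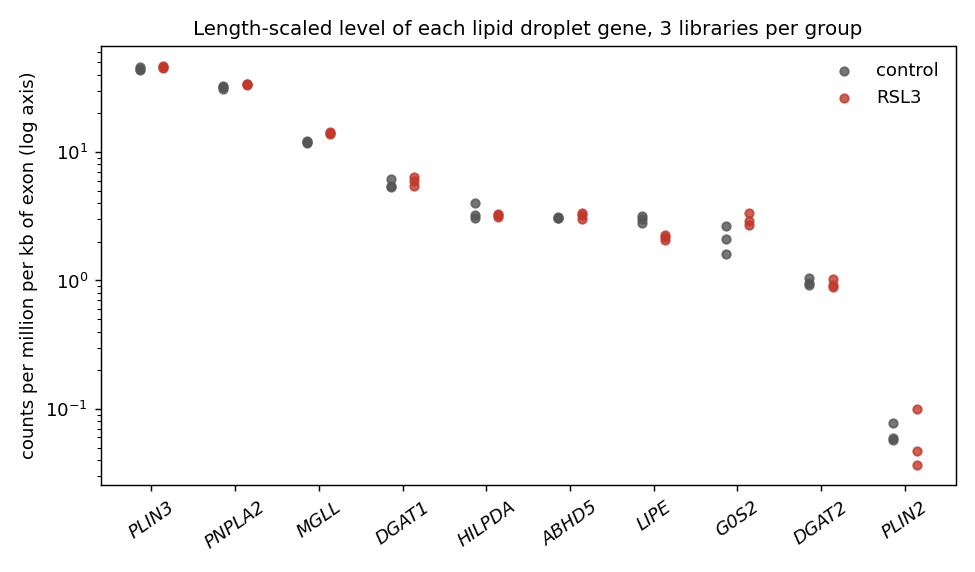
Level of each lipid droplet gene in CPM per kilobase of exon, on a log axis, with 1 point per library (3 control, 3 RSL3-treated) and genes ordered by their control mean. PLIN3 and PNPLA2 lie above 30 in every library, and PLIN2 lies below 0.1 in every library.

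LIPE (ENSG00000079435, chromosome 19, 42401514 to 42427388, minus strand, with all gene positions on GRCh38) encodes hormone-sensitive lipase, which cleaves diacylglycerol and steryl esters. Its normalized counts were 532, 491 and 558 in control libraries 1, 2 and 3, and 366, 382 and 397 in RSL3-treated libraries 1, 2 and 3. Every RSL3-treated library was below every control library. The fold was 0.723, with a 95% interval of 0.642 to 0.815 (log2 fold change -0.47, standard error 0.08, edgeR adjusted p = 0.0002). Whichever single library was omitted, its log2 fold change lay between -0.51 and -0.42. The antisense gene LIPE-AS1 covers 500 exon bases of LIPE (9.69%), and the unstranded counting could not assign reads there. LIPE-AS1 itself had 19 to 46 reads per library, against 318 to 677 for LIPE.

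RefSeq on GRCh38.p14 gives 2 promoters for LIPE, 3803 bases apart. They are shown because LIPE was the downregulated member and the counts per gene do not say which start was used. Each runs from 250 bases before the start to 50 after it, 5′ to 3′ on the minus strand, and capitals mark matches to 2 of the 6 motifs searched on both strands, the CCAAT box (CCAAT, read as ATTGG on the other strand) and the GC box (GGGCGG).
LIPE upstream start, chr19:42427339-42427638: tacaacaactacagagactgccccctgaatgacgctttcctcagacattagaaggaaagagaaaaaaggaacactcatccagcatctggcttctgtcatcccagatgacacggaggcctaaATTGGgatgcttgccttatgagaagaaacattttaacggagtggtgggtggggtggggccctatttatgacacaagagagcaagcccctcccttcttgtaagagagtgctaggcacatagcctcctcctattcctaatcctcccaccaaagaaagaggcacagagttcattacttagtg
LIPE downstream start, chr19:42423536-42423835: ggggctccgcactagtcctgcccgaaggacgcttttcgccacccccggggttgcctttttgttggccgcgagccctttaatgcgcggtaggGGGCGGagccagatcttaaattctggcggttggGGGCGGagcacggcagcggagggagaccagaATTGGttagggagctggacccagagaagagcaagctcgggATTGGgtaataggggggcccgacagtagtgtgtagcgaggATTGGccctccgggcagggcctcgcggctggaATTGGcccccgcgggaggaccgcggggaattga
The upstream promoter holds 47.7% G and C, 3 CG pairs and 1 CCAAT match. The downstream promoter holds 64.7% G and C, 24 CG pairs, 4 CCAAT matches and 2 GC boxes. Over all 35116 promoters in the RefSeq table, 34.6% hold a CCAAT match and 45.0% a GC box, and the median share of G and C is 58.7%.

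MGLL (ENSG00000074416, chromosome 3, 127689062 to 128052190, minus strand) encodes the enzyme that cleaves monoacylglycerol, including the endocannabinoid 2-arachidonoylglycerol, to glycerol and free fatty acid. Its normalized counts were 4598, 4676 and 4531 in control libraries and 5478, 5321 and 5452 in RSL3-treated libraries. The groups were well apart, with the lowest RSL3-treated library above the highest control library. The fold was 1.18, with a 95% interval of 1.12 to 1.23 (log2 fold change 0.24, standard error 0.03, edgeR adjusted p = 9.58e-06). No exon base of MGLL is shared with another gene of GENCODE v44. By p-value MGLL was number 566 and LIPE number 1115 of the 16105 genes tested.

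**Figure D2:**
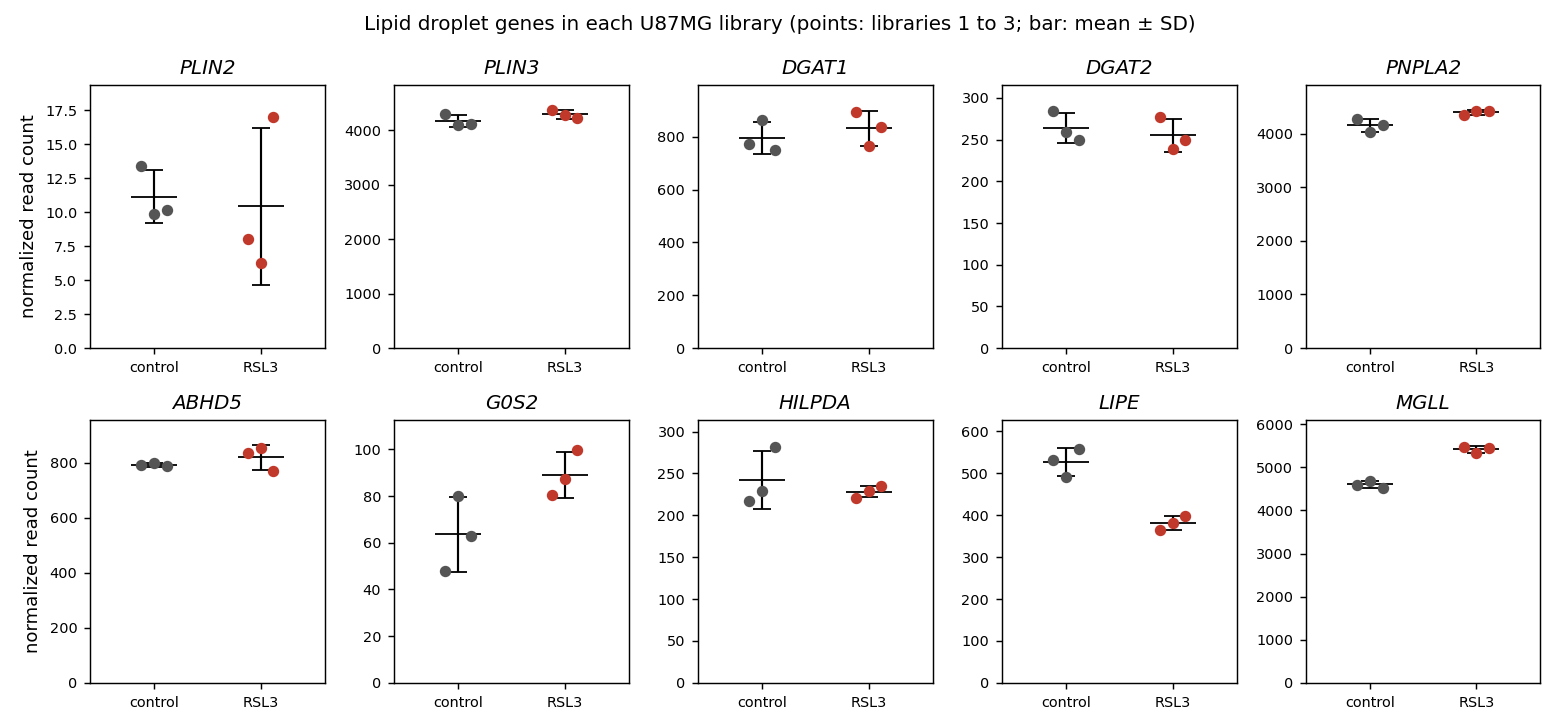
Normalized read counts of the 10 genes, 1 panel per gene with its own axis from 0, 1 point per library and bars for mean ± SD (n = 3 per group). LIPE and MGLL show groups well apart, PNPLA2 and G0S2 show groups that narrowly do not overlap, and the other 6 genes overlap.

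PNPLA2 (ENSG00000177666, chromosome 11, 818914 to 825573, plus strand) encodes ATGL, which starts the breakdown of triacylglycerol. Its normalized counts were 4275, 4033 and 4163 in control and 4343, 4429 and 4413 in RSL3-treated libraries. All RSL3-treated libraries were above the control libraries, by a small margin. The fold was 1.06 (95% interval 1.01 to 1.11), with a p of 0.0284 before adjustment over all genes and an edgeR adjusted p of 0.0912, so it did not pass the test. ABHD5 (ENSG00000011198, chromosome 3, 43690108 to 43734371, plus strand) encodes CGI-58, the protein that activates ATGL. It had 790, 799 and 786 normalized counts in control and 836, 855 and 769 in RSL3-treated libraries, which overlapped (fold 1.03, 95% interval 0.946 to 1.13, edgeR adjusted p = 0.629). The ABHD5 to PNPLA2 ratio per kilobase of exon was 0.0969 ± 0.00348 in control and 0.0948 ± 0.00544 in RSL3-treated cells (SD, n = 3 each).

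G0S2 (ENSG00000123689, chromosome 1, 209675412 to 209676390, plus strand) encodes a small protein that binds ATGL and blocks it. Its normalized counts were 47.9, 79.9 and 62.8 in control libraries and 80.5, 87.2 and 99.8 in RSL3-treated libraries. The RSL3-treated libraries were all higher, but control library 2 lay within 1 normalized count of the lowest of them. The fold was 1.43, with a 95% interval of 1.05 to 1.94 (log2 fold change 0.52, standard error 0.21), a p of 0.0235 before adjustment and an edgeR adjusted p of 0.0788, so it did not pass. Without control library 2 the log2 fold change was 0.70 and the edgeR adjusted p 0.0254, without control library 1 they were 0.33 and 0.319, and over all 14 alternatives the adjusted p lay between 0.0254 and 0.332. The gene was covered by 61 to 100 reads per library, which limits the precision of this value. Its promoter in the RefSeq table (GRCh38.p14, plus strand, 250 bases before to 50 after the start) is shown because G0S2 had the largest fold among the 10 genes in the upward direction. The capitals mark 1 match to the core of the NRF2 antioxidant response element (TGACNNNGC), which starts 81 bases before the start site.
G0S2, chr1:209675162-209675461: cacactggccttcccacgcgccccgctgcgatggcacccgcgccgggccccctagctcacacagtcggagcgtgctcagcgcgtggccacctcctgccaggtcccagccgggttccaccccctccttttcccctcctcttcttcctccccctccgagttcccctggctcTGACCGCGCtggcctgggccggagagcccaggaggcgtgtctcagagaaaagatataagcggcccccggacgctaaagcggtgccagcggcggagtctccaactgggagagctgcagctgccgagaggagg
The same core is found in 13.3% of all promoters of this length, PLIN3 among the 6 members with an entry, and a match is a description of the letters only. The HIF core was searched as ACGTG and the TATA box core as TATAAA. The PPAR direct repeat was AGGTCA 2 times in a row with 1 base between. These forms were held by 21.4%, 11.5% and 0.0228% of all promoters, in that order, and had no match in the LIPE and G0S2 windows. Variants such as GCGTG and TATAAG, which the G0S2 window holds, were not searched.

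HILPDA (ENSG00000135245, chromosome 7, 128455849 to 128458418, plus strand) encodes another small inhibitor of ATGL, known for its induction by hypoxia. Its normalized counts were 217, 229 and 282 in control and 221, 229 and 235 in RSL3-treated libraries. The groups overlapped, and the fold was 0.942 (95% interval 0.794 to 1.12, edgeR adjusted p = 0.659). The direction of HILPDA rested on control library 3, without which the log2 fold change was 0.04. Set against their target in the same library, the summed level of G0S2 and HILPDA per kilobase was 0.143, 0.192 and 0.191 of that of PNPLA2 in control and 0.175, 0.182 and 0.197 in RSL3-treated libraries. This ratio of inhibitor to lipase transcripts overlapped between the groups (exact two-sided permutation test, p = 0.8, where 0.1 is the smallest p that 3 against 3 allows). Taken without exon length, its log2 change turned from 0.08 to -0.03.

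PLIN3 (ENSG00000105355, chromosome 19, 4838341 to 4867694, minus strand) encodes TIP47, a perilipin that moves from the cytosol to young droplets. Its normalized counts were 4290, 4092 and 4114 in control and 4374, 4275 and 4220 in RSL3-treated libraries. These overlapped, and the fold was 1.03, with a 95% interval of 0.980 to 1.08 (edgeR adjusted p = 0.424). PLIN2 (ENSG00000147872, chromosome 9, 19108375 to 19149290, minus strand) encodes adipophilin, the perilipin that is usually the main coat of droplets outside fat tissue. It was covered by only 17, 8 and 11 reads in control and 7, 6 and 17 reads in RSL3-treated libraries. The RSL3-treated libraries lay on both sides of the control libraries, and the fold was 0.935 with a 95% interval of 0.469 to 1.86 (edgeR adjusted p = 0.917). At this depth the counts do not tell apart the folds within this interval, and leaving out RSL3-treated library 1 or 2 turned the log2 fold change of PLIN2 to 0.05 or 0.17.

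Genes within 300 kilobases of PLIN2 on chromosome 9 differed widely in counted reads. Raw reads per library were 1116 to 1792 for HAUS6, 5471 bases away, 2331 to 3654 for RRAGA and 880 to 1440 for DENND4C. RPS6, which encodes a ribosomal protein and lies 226425 bases away, had 18940 to 30681 reads. ADAMTSL1 had 515 to 790 and ACER2 20 to 70 reads, while SAXO1, 59017 bases away, had 1 to 4, fewer than PLIN2. No exon base of PLIN2 is shared with another gene of GENCODE v44. The neighbours were looked up after the PLIN2 counts had been seen, and the cause of the low PLIN2 counts was not tested. Whether the annotation used for counting assigns PLIN2 exons to a further gene as well, in which case those reads would not be counted, was not tested either, so the level, the percentile and the ratio to PLIN3 hold for counted reads only. The ratio of PLIN2 to PLIN3 per kilobase of exon was 0.00146 ± 0.000214 in control and 0.00133 ± 0.000756 in RSL3-treated cells (SD, n = 3 each).

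DGAT1 (ENSG00000185000, chromosome 8, 144314584 to 144326910, minus strand) and DGAT2 (ENSG00000062282, chromosome 11, 75759512 to 75801535, plus strand) encode unrelated enzymes for the last step of triacylglycerol synthesis. DGAT1 had 772, 863 and 749 normalized counts in control and 895, 764 and 837 in RSL3-treated libraries. DGAT2 had 284, 260 and 250 in control and 277, 239 and 250 in RSL3-treated libraries. The groups overlapped for both genes. The fold was 1.05 for DGAT1 (95% interval 0.948 to 1.16, edgeR adjusted p = 0.531). It was 0.961 for DGAT2 (95% interval 0.824 to 1.12, edgeR adjusted p = 0.763), and without control library 1 the log2 fold change of DGAT2 was 0.0034. Per kilobase of exon, DGAT1 exceeded DGAT2 by 5.77 ± 0.586 times in control and 6.24 ± 0.153 times in RSL3-treated cells (SD, n = 3 each). These ratios rest in part on merged exon lengths of 4131 bases for DGAT1 and 7904 for DGAT2. Mean normalized counts in control were 795 for DGAT1 and 264 for DGAT2.

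Among the 10 genes, 4 had groups that did not overlap, against 38.6% of all genes tested. The 4 partner ratios, for PLIN2 to PLIN3, DGAT1 to DGAT2, the inhibitors to PNPLA2 and ABHD5 to PNPLA2, gave p-values of 0.8, 0.3, 0.8 and 0.7 in the exact two-sided permutation test, and 0.8 for each after Benjamini-Hochberg adjustment. Exon bases shared with other genes made up 18.3% in PLIN3, 13.2% in HILPDA, 11.1% in DGAT1, 10.5% in PNPLA2, 6.83% in DGAT2 and 2.25% in ABHD5. For PLIN3, HILPDA, PNPLA2 and DGAT2 the overlapping genes are long non-coding RNAs with at most 3 reads in any library. DGAT1 and ABHD5 share 137 and 170 exon bases with the protein-coding genes HSF1 and ANO10, which had 4001 to 6174 and 3701 to 5809 reads. Most of the shared bases of DGAT1, 444 (10.7% of its exon bases), lie in a long non-coding RNA gene with no counted read in any library.

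**Figure D3:**
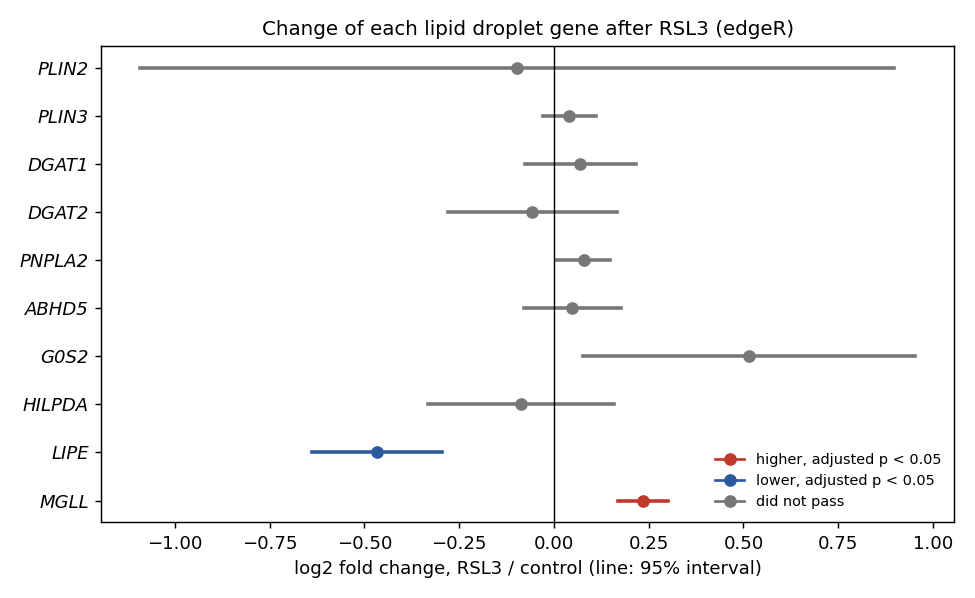
Log2 fold change (RSL3-treated over control) of each of the 10 genes, with its 95% interval from edgeR as a line and colour for the call. LIPE lies wholly below 0 and MGLL wholly above 0. The intervals of G0S2 and PNPLA2 (log2 fold changes 0.52 and 0.08) begin just above 0, but neither gene passed the adjusted test. The PLIN2 interval is the widest.

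Of 18 further coat and surface genes of the droplet, 12 were tested, 4 were called higher and 1 lower, and the median log2 fold change was 0.06. The share called was 41.7% of those tested, against 25.6% of all genes tested. The lists were chosen with earlier results of these data known, so their shares here and below describe these lists only. VPS13A, a lipid transfer protein, rose from 4254 ± 115 to 5013 ± 103 normalized counts (SD, n = 3, edgeR adjusted p = 1.64e-05). FAF2, an adaptor for protein degradation on droplets, rose by a log2 fold change of 0.15 (edgeR adjusted p = 0.00325). METTL7A, a methyltransferase found on droplets, had the one decrease, from 225 ± 26.9 to 109 ± 13.0 (SD, n = 3, edgeR adjusted p = 7.19e-06), and 18.9% of its exon bases are shared with other genes. PLIN4 and RAB18, named after their values were seen, were also called higher. PLIN4, a perilipin, went from 14.4 ± 5.88 to 34.2 ± 7.77 (SD, n = 3, log2 fold change 1.29, edgeR adjusted p = 0.0133). Its call was lost without control library 1, without RSL3-treated library 1 or 2, and in DESeq2 with 2 surrogate variables, where the adjusted p reached up to 0.113. RAB18, a GTPase of the droplet surface, had a log2 fold change of 0.10, and its call was lost in 5 of 14 alternatives. PLIN1, PLIN5 and the CIDE genes had too few counted reads to be tested. In GENCODE v44 all exon bases of CIDEB and 21.7% of those of PLIN5 are shared with other genes, so the 0 reads of CIDEB in every library do not give its level.

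Among 18 genes of triacylglycerol and steryl ester synthesis upstream of or beside the DGAT step, 13 were tested, 6 were called higher and 1 lower, and the median log2 fold change was 0.12. Called were 53.8% of those tested, against 25.6% of all genes tested. The lipins make the diacylglycerol that DGAT enzymes use, and of these LPIN2 and LPIN1 moved apart. LPIN3, named after its value was seen, did not pass (log2 fold change 0.73, edgeR adjusted p = 0.107). LPIN2 rose from 3461 ± 22.4 to 4609 ± 228 normalized counts (SD, n = 3, edgeR adjusted p = 3.34e-08), and LPIN1 fell from 7239 ± 139 to 6147 ± 67.3 (SD, n = 3, edgeR adjusted p = 5.82e-06). AGPAT3, an acyltransferase that makes phosphatidic acid, rose by a log2 fold change of 0.20 (edgeR adjusted p = 0.000207). In the list of 15 genes of droplet assembly at the endoplasmic reticulum, 14 were tested, 3 were called higher and 1 lower (28.6% of those tested), and the median was 0.0031. RAB3GAP1, which activates RAB18, and COPE, a coatomer subunit, had log2 fold changes of 0.15 and 0.13, and MCTP2, a membrane protein, had -0.21 with groups that overlapped. In COPE, 9.18% of the exon bases are shared with other genes. The coatomer gene COPG1, named after its value was seen, had 0.09. Of these 4 genes, all but RAB3GAP1 lost the call in at least 2 of 14 alternatives.

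The list of 18 other neutral lipid hydrolases had 12 genes tested, 4 called higher and 5 lower, and a median log2 fold change of 0.05. Called were 75.0% of those tested, against 25.6% of all genes tested. LIPA, the acid lipase that clears droplet lipid inside lysosomes, fell from 4108 ± 85.1 to 3131 ± 119 normalized counts (SD, n = 3, edgeR adjusted p = 5.57e-08). LIPG, a secreted lipase, fell from 1188 ± 4.29 to 875 ± 38.3 (SD, n = 3, edgeR adjusted p = 2.39e-06). DAGLB, which makes 2-arachidonoylglycerol, the substrate of monoacylglycerol lipase, rose by a log2 fold change of 0.39 with a standard error of 0.07 (edgeR adjusted p = 0.00016). ABHD6, another monoacylglycerol hydrolase, rose by a log2 fold change of 0.23 (edgeR adjusted p = 0.00128). ABHD12, also a monoacylglycerol hydrolase and named after its value was seen, fell (log2 fold change -0.26, edgeR adjusted p = 0.000103). LIPA, LIPG, DAGLB and ABHD6 kept their calls in all 14 alternatives, and ABHD12 was not followed under them.

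As HILPDA and PLIN2 are known targets of HIF and PPAR factors, other targets were listed beside them. Of 17 HIF targets, all tested, 4 were called higher and 3 lower (41.2%, against 25.6% of all genes tested), with a median log2 fold change of -0.06. LOX and SLC2A1 rose (0.44 and 0.37), and CA12 and VEGFA fell (-0.64 and -0.23), with edgeR adjusted p of at most 0.000133. Like HILPDA, each of these named genes had its highest normalized count among control libraries in library 3. Among RSL3-treated libraries, library 3 was also highest for HILPDA, CA12 and VEGFA, but not for LOX and SLC2A1. The cause was not tested. Of 16 PPAR targets of fatty acid oxidation, 15 were tested, 2 were called higher and 4 lower (40.0% of those tested), with a median of -0.05. FABP3, a fatty acid carrier, and SLC25A20, the carnitine carrier of mitochondria, fell (log2 fold changes -0.59 and -0.36), with edgeR adjusted p of 0.00013 and 0.000836. ACADVL and CPT1A, both of fatty acid oxidation, had log2 fold changes of 0.10 and 0.11, and the groups of CPT1A overlapped. The call of ACADVL was lost in 2 and that of CPT1A in 7 of 14 alternatives.

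**Figure D4:**
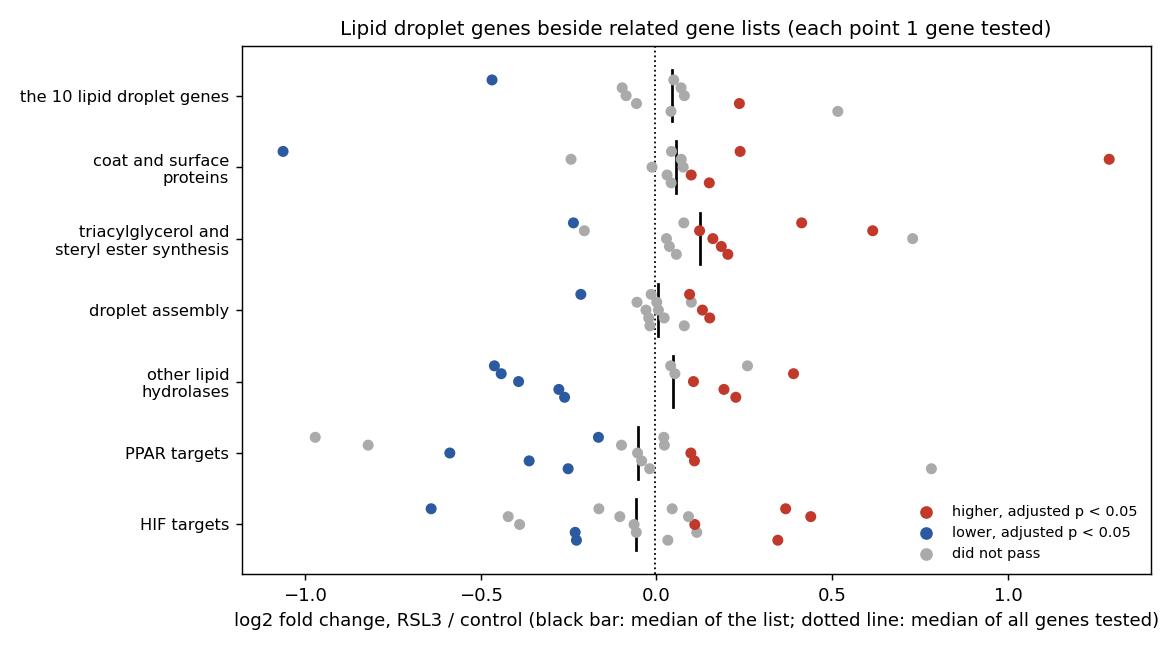
Log2 fold changes (RSL3-treated over control) of the 10 lipid droplet genes and of 6 related lists, 1 point per gene tested, coloured by call, with the list median as a black bar and the median of all genes tested as a dotted line. List medians lie between -0.06 and 0.12, and each list holds genes called in both directions.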

How the data were processed

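Gene counts of 6 libraries of U87MG cells, 3 per group, were analysed. Per the labels and the study's methods, the authors deposited raw read counts per gene from HTSeq 0.6.1p1 (exons, unstranded), without normalization, after trimming in Trimmomatic 0.36 and fastp and HISAT2 alignment on the GRCh38.p4 build. The annotation release is not given in the sources used here.

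Symbols were matched to Ensembl identifiers with a table of gene names, and coordinates, exon lengths and exon overlaps come from GENCODE v44. In R 4.3.3, edgeR 4.0.16 was run with filterByExpr (minimum count 10), TMM factors (0.995 to 1.01) and the quasi-likelihood F test, without covariates, with Benjamini-Hochberg adjustment across 16105 genes. Intervals are the log2 fold change ± the t quantile times a standard error derived from the F value. Ratios were tested in scipy 1.17.1. DESeq2 1.42.0, alone or with 1 or 2 surrogate variables (sva 3.50.0, on genes whose normalized counts average above 1), other scalings and filters, the replicate number as a block and each library left out were alternatives. The study's methods name DESeq2 after surrogate variable analysis, and the number of variables and the count floor were chosen here. The edgeR step was tested on simulated data.

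The 10 genes and the lists were chosen with earlier results of these data known. Named were all 10 genes, in each list the 2 genes of smallest p among those called higher and likewise lower, and the markers of the labelled cell type. Depth limits the genes with the fewest reads, PLIN2 and G0S2.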

Additional observations from a re-analysis of the deposited data

How the results depend on the processing

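LIPE and MGLL kept their direction and their call in all 14 alternatives, with LIPE at a log2 fold change between -0.51 and -0.42 and MGLL between 0.23 and 0.25. Of 135 values of the 10 genes under the alternatives, 130 stayed on the same side of the threshold with the same sign, 1 (G0S2 without control library 2) passed the threshold and 4 changed sign without passing it. With 1 library left out, the log2 fold change lay between -0.17 and 0.17 for PLIN2, -0.12 and 0.0034 for DGAT2, and -0.17 and 0.0422 for HILPDA, and, without a change of sign, 0.33 and 0.70 for G0S2, 0.016 and 0.13 for DGAT1, 0.018 and 0.098 for ABHD5, and 0.028 and 0.064 for PLIN3. PLIN2 was filtered out with a minimum of 10 counts in every library, and without control library 1 or RSL3-treated library 3. With surrogate variables DESeq2 gave PLIN2 no adjusted p, so those runs were left out of its values. Where a log2 change of 1 or more in size was also required, 0 of the 10 genes and 213 of all genes were left, against 2 and 4123 by edgeR's adjusted p alone. DESeq2 with 2 surrogate variables called 2268 genes in all, and 3 of the coat and surface list, 2 of the assembly list and 3 of the PPAR targets. Leaving out 1 library gave 1 to 2 of the 10 genes called higher, 3 to 5 of the coat and surface list, 1 to 4 of the assembly list and 3 to 6 of the PPAR targets. The log2 change of the ratios then lay between -0.69 and 0.14 for PLIN2 to PLIN3, -0.0513 and 0.145 for the inhibitors to PNPLA2, and -0.0569 and 0.0152 for ABHD5 to PNPLA2. Without exon length, the ratio of inhibitors to PNPLA2 changed by -0.0306. The replicate number as a block called 4633 genes and the same number of the 10, 2. Same-numbered libraries correlated at only 0.0161, 0.0335 and 0.0935 in their deviations from the group means. Not every library correlated best with its own number, but the libraries numbered 3 gave the highest value of all pairs. These correlations cannot decide whether same-numbered libraries were handled together, and the labels do not say. The cause of the shifts under the alternatives was not tested.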

Other observations

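Farther along chromosome 9, a stretch runs from MLLT3, 1.19 megabases beyond the end of PLIN2 in GENCODE v44, to CDKN2B. Its 23 protein-coding genes in the files held 1 read in all over the 6 libraries. The ends of the stretch were set by gene name and not by a rule, so the total describes these genes only. The cause of the low total was not tested. PLIN2 and its expressed neighbours lie outside that stretch. The promoter of PLIN2 in the RefSeq table, not printed here, holds the HIF core 3 times on both strands together, of which 2 overlap. Only the form ACGTG was searched, and 21.4% of all promoters of this length hold it at least once.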
